A study of Mus musculus with 6 samples.

Results

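Immediate early genes and their feedback regulators are the genes that a stimulated T cell transcribes first, together with the proteins that then damp the signal. The 35 members described here are named transcription factors of the AP-1 and EGR families, IER and BTG genes, MAP kinase phosphatases, Sprouty and Spred genes, NF-kB subunits with their inhibitors, the ZFP36 family and 3 further early genes, out of 49671 genes counted. They were chosen by gene symbol, with earlier results of these data known, and each matched exactly 1 row of the count table. RNA-seq was made from CD8 T cells of OT-I mice, which carry a T cell receptor transgene specific for SIINFEKL, a peptide of ovalbumin. There were 3 libraries labelled CD73 KO and 3 labelled WT, with no allele or age given in the sources used here. Per the labels, spleen CD8 T cells of both genotypes were driven toward exhaustion in culture with daily peptide (10 ng/mL) over 5 days, and the medium held IL-7 and IL-15 (5 ng/mL of each). The cells were replated after 48 hours and sorted for live cells at the end, so all 6 libraries share the transgenic receptor, the repeated peptide and the sort. The time between the last peptide addition and the sort is not given in the sources used here.

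When the T cell receptor is engaged, kinases of the ERK, p38 and JNK type and the IKK complex switch on transcription factors that are already present in the cell. Serum response factor acts at CArG boxes, CREB acts at cyclic AMP response elements, and NF-kB dimers act at NF-kB sites of early genes. Many of the induced genes encode brakes. Phosphatases of the DUSP family remove phosphate from MAP kinases, Sprouty and Spred proteins restrain the route to ERK, IkB proteins hold or redirect NF-kB, TNFAIP3 (A20) trims ubiquitin chains upstream of IKK, and ZFP36 proteins lead AU-rich mRNAs to decay. CD73, encoded by Nt5e, turns extracellular AMP into adenosine, which raises cyclic AMP in T cells through its receptor.

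Totals were 6934150 to 19382950 counts per library, deepest in CD73 KO replicate 1 and shallowest in WT replicate 3. For Nt5e the counts of CD73 KO replicates 1 to 3 were 69, 128 and 88, against 290, 49 and 263 for WT replicates 1 to 3. In CPM, which divides each count by its library's total after TMM scaling, the library labelled WT replicate 2 held 5.22, against 3.67 to 8.47 in CD73 KO, while the other WT libraries held 22.6 and 37.4. It goes against its label in this gene, and edgeR gave Nt5e a log2 fold change of -1.67 ± 0.72 (SE, adjusted p = 0.534). Results below are therefore also given without the library labelled WT replicate 2. A second library stood apart in the members themselves. CD73 KO replicate 1 had the highest level of the 6 libraries in 22 of 35 members, against 21.8% of the 12242 genes tested, and the lowest in 1 member, against 21.5% of genes. Results are also given without it.

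The CD8 T cell markers were present (7 of 7 listed genes, summed to 4642 to 5086 CPM in CD73 KO and 4415 to 4705 CPM in WT). The B cell list (4 of 5 genes with a count) summed to 739 to 821 CPM in CD73 KO and 690 to 755 CPM in WT, nearly all of it Ighm, with Ms4a1 at 0. The stromal and myeloid lists did not overlap between genotypes. The stromal list (2 of 4 genes with a count) summed to 66.9 to 105 CPM in CD73 KO and 46.6 to 63.4 CPM in WT, nearly all of it Pecam1, with Col1a2 and Cdh5 at 0. The myeloid list (3 of 7 genes with a count) summed to 10.1 to 12.8 CPM in CD73 KO and 8.83 to 9.64 CPM in WT, with Lyz2, Csf1r, C1qa and Spi1 at 0 in all libraries. The NK cell list (3 of 3 genes with a count) ran from 2.24 to 6.92 CPM in CD73 KO and 2.99 to 22.2 CPM in WT, highest in the library labelled WT replicate 2. Most of it there was Gzma, with 164 counts, against 36 for Klrb1c and 8 for Ncr1. Cd4 had 0 to 5 counts per library, and the dendritic, erythrocyte and platelet lists stayed at or below 3.62 CPM. The part of Ighm, Pecam1 and Cd68 in the results was not tested.

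All 35 members passed the filter on low counts, with 38 to 7674 counts per library. Most of their fold changes were above 0 without a single member passing the test, whose adjusted p is corrected over all 12242 genes. The CD73 KO libraries did not share this evenly. The median over members of log2 CPM minus the gene's mean was 0.44, -0.14 and 0.060 in CD73 KO replicates 1 to 3. In WT replicates 1 to 3 it was -0.11, -0.26 and -0.065. CD73 KO replicate 2 was the lowest of the 6 libraries in 11 members, against 16.0% of genes. Of the 35, 31 had a log2 fold change (CD73 KO over WT) above 0, against 52.3% of all genes tested, and the median was 0.30, against 0.013 over all genes. By edgeR's quasi-likelihood test, 0 of 35 members passed an adjusted p of 0.05, where 0.0572% of all genes did, and the lowest adjusted p among members was 0.287. At an unadjusted p under 0.05 there were 7 members, all higher in CD73 KO (Egr2, Btg1, Btg2, Dusp1, Spry2, Nfkbiz and Cd69), against 5.75% of all genes, and 0 members lower, against 3.89% of genes. DESeq2 also called 0 members, where it called 0.786% of genes, and its lowest adjusted p among members was 0.0558 (Btg2). With DESeq2, 8 members had an unadjusted p under 0.05, all higher in CD73 KO. At that threshold 4.83% of genes were higher by DESeq2 and 3.41% lower. With no filter on low counts edgeR called 6 members (Egr2, Btg1, Btg2, Dusp2, Spry2 and Nfkbiz), against 1.4% of 21315 genes. In bulk RNA, a change in the share of cells that express a gene and a change in RNA per cell cannot be told apart.

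**Figure D1:**
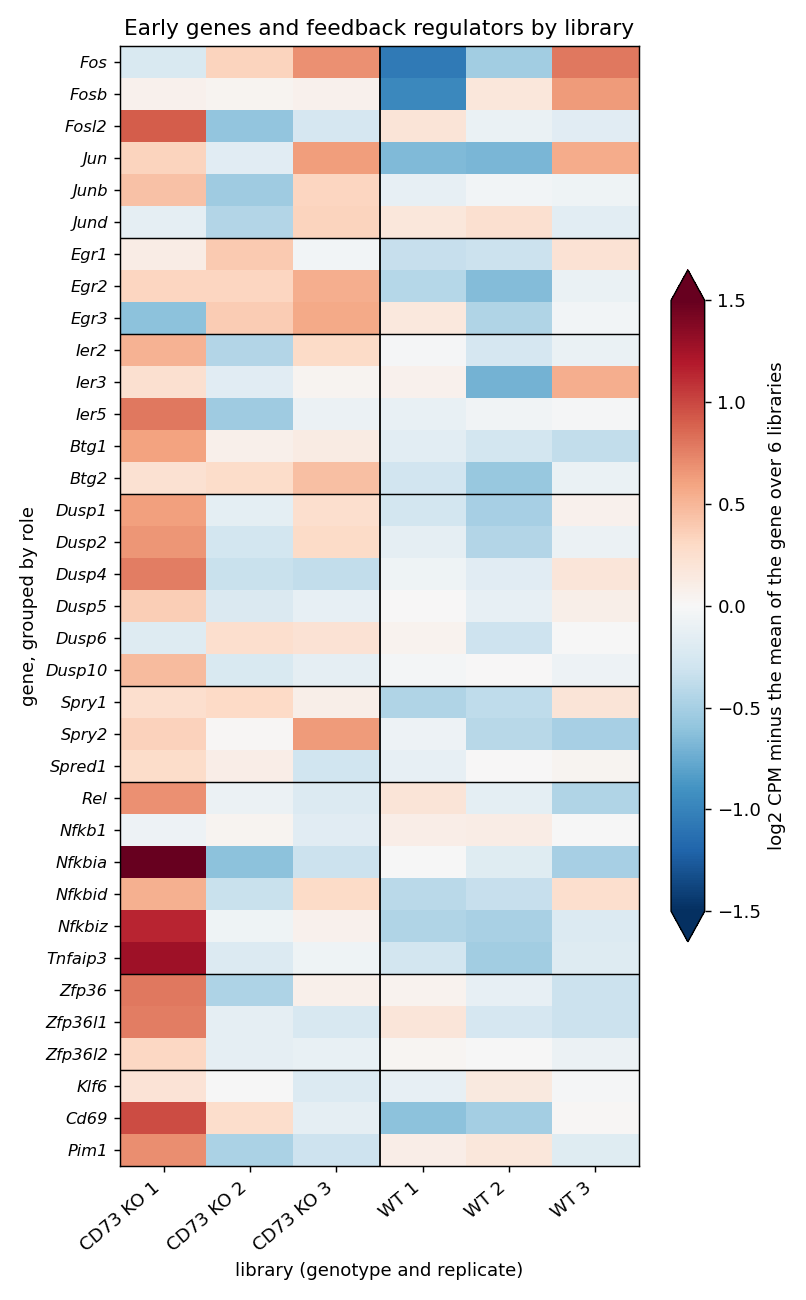
Level of each of the 35 members (rows, grouped by role between black lines) in each library (columns, CD73 KO left, WT right), as log2 CPM minus the mean of that gene over the 6 libraries. Colours end at 1.5 above and below the mean, and the first column, CD73 KO replicate 1, holds the highest value in 22 of 35 rows.

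The 2 libraries that stood apart moved these counts differently. Without the library labelled WT replicate 2, 31 of 35 members were still above 0 (51.3% of genes), the median was 0.23, and 4 members, Egr2, Btg1, Btg2 and Spry2, kept an unadjusted p under 0.05, against 2.96% of genes higher at that threshold. Without CD73 KO replicate 1, 18 of 35 members were above 0, against 49.7% of genes, and the median was 0.029. Then 7 members were higher at an unadjusted p under 0.05 (Egr2, Egr3, Btg1, Btg2, Dusp6, Spry2 and Nfkbiz), against 5.19% of genes, and 3 were lower (Fosl2, Dusp4 and Pim1), against 3.22% of genes. Egr2, Btg1, Btg2 and Spry2 were among the members at an unadjusted p under 0.05 and higher in CD73 KO in each of the 6 fits that left out 1 library. These fits share most of their libraries. The share of all genes that stayed under 0.05 in each fit is not given here, so this count has no background. The number of higher members at an unadjusted p under 0.05 was 14 without CD73 KO replicate 2 (5.18% of genes), 7 without CD73 KO replicate 3 (7.26% of genes), 4 without WT replicate 1 (3.9% of genes) and 12 without WT replicate 3 (7.28% of genes).

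**Figure D2:**
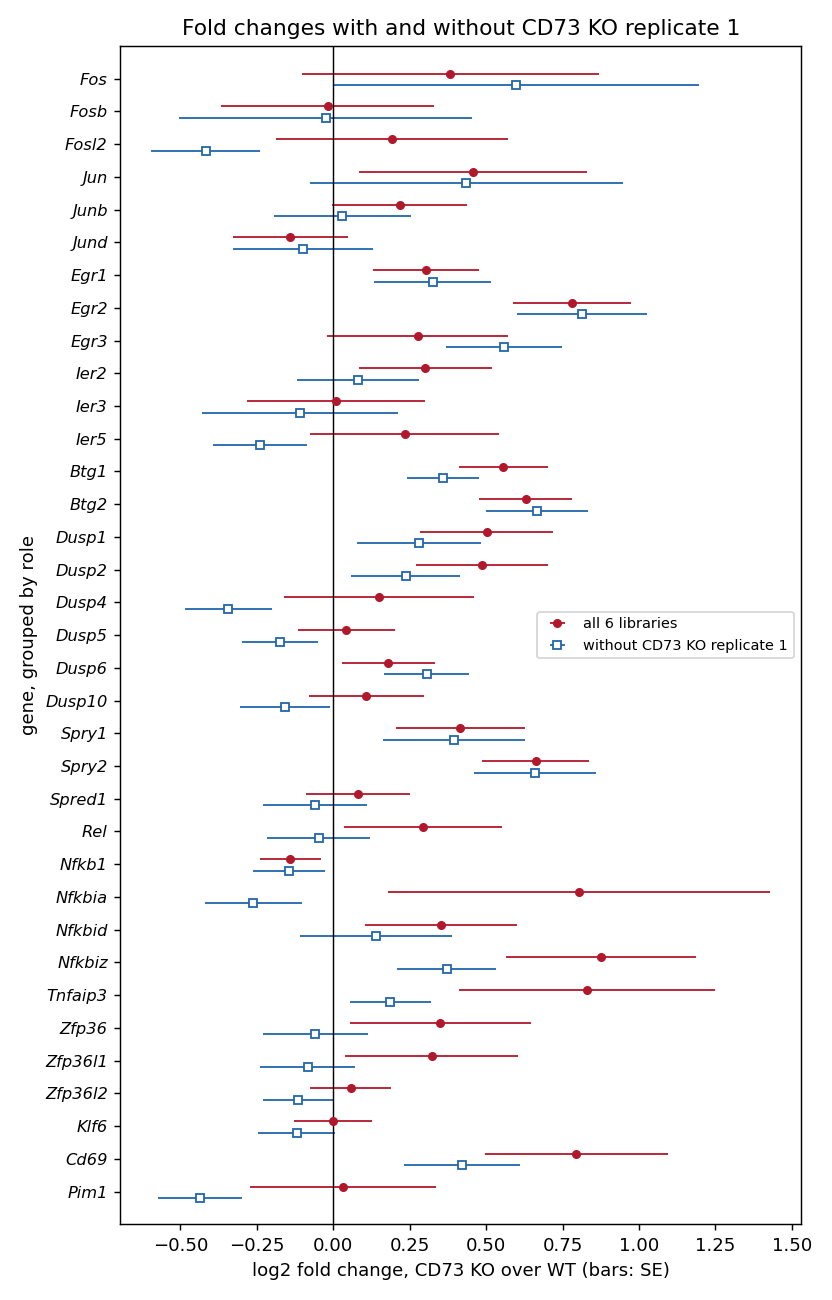
Log2 fold change of each member, CD73 KO over WT, with its SE, from edgeR with all 6 libraries (filled red circles) and without CD73 KO replicate 1 (open blue squares). The pairs of symbols lie close together for Egr2, Btg2 and Spry2, whereas Nfkbia is at 0.80 with all libraries and -0.26 without that one.

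Of the 5 members whose libraries did not overlap between genotypes, all lay above in CD73 KO, 14.3% of the list against 7.59% of all genes, and 0 lay below, against 7.6%. Egr2 encodes a zinc finger factor that is induced by receptor signals through calcium and ERK and restrains T cell activation (chromosome 10, 67535475 to 67542188, mm10). It was at 13.7, 13.7 and 16.1 CPM in the CD73 KO libraries, against 8.17, 7.03 and 10.3 CPM in the WT libraries. The lowest CD73 KO library was above the highest WT library. The log2 fold change was 0.78 ± 0.19 (SE, adjusted p = 0.287, edgeR), 0.66 ± 0.23 without the library labelled WT replicate 2 and 0.81 ± 0.21 without CD73 KO replicate 1.

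Promoter windows of RefSeq on GRCm38.p6 (250 bases before to 50 after a start) were found for 27 of the 35 members. They were searched on both strands for the CArG box, the cyclic AMP response element TGACGTCA, the AP-1 site TGANTCA, the EGR sites GCGTGGGCG and GCGGGGGCG, and the NF-kB consensus. The element TGACGTCA does not itself contain the AP-1 site. The AP-1 site stood in a window of Tnfaip3 and Zfp36l1, 7.41% of the 27 members against 8.97% of all genes with a window, and an EGR site in one of Dusp2, Fosb, Fosl2 and Zfp36, 14.8% against 3.93%. A CArG box stood in a window of Egr2, Dusp5 and Zfp36, 11.1% of the 27 members against 1.81% of all genes with a window. The stretch before one of the Egr2 starts is shown because Egr2 was one of the 4 members at an unadjusted p under 0.05 in each fit that left out 1 library. Its capitals mark the CArG box, at bases -72 to -63 before the start (chr10:67537619-67537868, plus strand).
Egr2 promoter: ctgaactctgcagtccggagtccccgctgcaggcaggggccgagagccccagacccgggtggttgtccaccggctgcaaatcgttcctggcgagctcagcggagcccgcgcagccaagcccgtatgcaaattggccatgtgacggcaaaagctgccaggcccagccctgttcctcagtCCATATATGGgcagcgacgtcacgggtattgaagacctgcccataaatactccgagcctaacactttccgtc

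The other EGR genes were less separated. Egr1, the family member of highest mean CPM, was at 56.9, 69.2 and 51.0 CPM in CD73 KO and 41.3, 42.0 and 61.1 CPM in WT, and the groups overlapped through WT replicate 3 (log2 fold change 0.30 ± 0.17, adjusted p = 0.594, edgeR). Egr3, a close relative of Egr2 with a shared role in restraining activated T cells, was lowest in CD73 KO replicate 1. It was at 11.9, 23.8 and 27.1 CPM in CD73 KO, against 20.3, 13.3 and 17.7 CPM in WT (log2 fold change 0.28 ± 0.30, and 0.56 ± 0.19 without CD73 KO replicate 1).

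Btg1 and Btg2 encode antiproliferative adaptor proteins that recruit the CCR4-NOT deadenylase and help keep T cells quiescent. Btg2 (chromosome 1, 134075170 to 134079120) was at 30.1, 30.8 and 34.9 CPM in CD73 KO, against 21.0, 17.3 and 23.8 CPM in WT. The CD73 KO libraries lay within 5 CPM of each other and above all WT libraries. The log2 fold change of Btg2 was 0.63 ± 0.15 (adjusted p = 0.287, edgeR), 0.51 ± 0.17 without the library labelled WT replicate 2 and 0.67 ± 0.17 without CD73 KO replicate 1. Btg1 (chromosome 10, 96617006 to 96622809) was at 296, 204 and 212 CPM in CD73 KO, against 174, 160 and 150 CPM in WT. CD73 KO replicate 1 stood above the other CD73 KO libraries, which were themselves above every WT library. For Btg1 the log2 fold change was 0.56 ± 0.15 (adjusted p = 0.319, edgeR), 0.54 ± 0.18 without the library labelled WT replicate 2 and 0.36 ± 0.12 without CD73 KO replicate 1.

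The element TGACGTCA stood in a window of Btg2, Dusp1 and Nfkbid, 11.1% of the 27 members against 2.03% of all genes with a window. The Btg2 and Dusp1 stretches are shown because both were among the 7 members of unadjusted p under 0.05. Capitals mark the element, at bases -166 to -159 in Btg2 (chr1:134079156-134079405, minus strand) and -143 to -136 in Dusp1 (chr17:26508520-26508722, minus strand). The Dusp1 stretch ends where another annotated exon of the gene begins.
Btg2 promoter: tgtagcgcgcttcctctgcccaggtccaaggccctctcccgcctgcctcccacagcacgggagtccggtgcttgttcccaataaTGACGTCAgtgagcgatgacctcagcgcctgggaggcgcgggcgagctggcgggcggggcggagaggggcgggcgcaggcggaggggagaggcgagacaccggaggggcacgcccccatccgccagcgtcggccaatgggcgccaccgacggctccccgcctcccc
Dusp1 promoter: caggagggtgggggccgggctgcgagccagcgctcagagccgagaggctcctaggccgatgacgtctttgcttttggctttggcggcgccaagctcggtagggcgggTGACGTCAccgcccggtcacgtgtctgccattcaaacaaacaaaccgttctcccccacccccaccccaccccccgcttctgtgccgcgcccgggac

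The IER genes, small early response proteins, overlapped between genotypes. Ier2 was at 106, 54.4 and 90.1 CPM in CD73 KO and 72.8, 61.8 and 69.1 CPM in WT, so that CD73 KO held both the highest and the lowest library. Ier5 was at 86.0, 34.3 and 46.8 CPM in CD73 KO and 46.0, 47.9 and 48.8 CPM in WT. Its log2 fold change of 0.23 ± 0.31 turned to -0.24 ± 0.15 without CD73 KO replicate 1. Ier3, a regulator of survival, was the member of lowest CPM, with 5.88 to 7.82 CPM in CD73 KO and 4.05 to 9.68 CPM in WT.

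**Figure D3:**
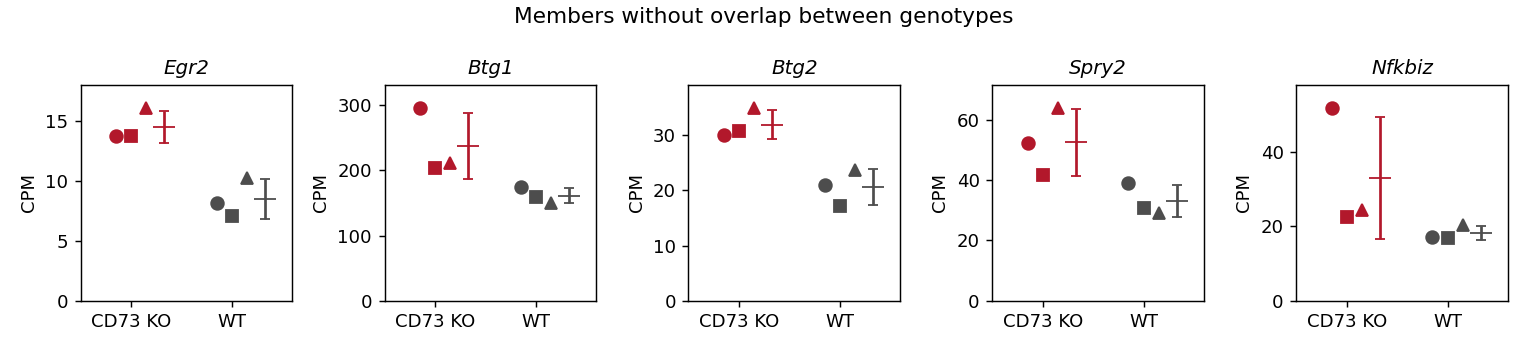
CPM of the 5 members whose CD73 KO (red, left) and WT (grey, right) libraries did not overlap. Circles, squares and triangles are replicates 1, 2 and 3, and the horizontal mark with its bar is the mean ± SD (n = 3). Egr2 runs from 13.7 to 16.1 CPM in CD73 KO and from 7.03 to 10.3 CPM in WT.

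Sprouty and Spred genes encode inhibitors of receptor signalling to ERK that are themselves induced by ERK. Spry2 (chromosome 14, 105891947 to 105896819) was at 52.2, 41.7 and 63.9 CPM in CD73 KO, against 39.1, 30.9 and 29.0 CPM in WT. The groups did not overlap, though CD73 KO replicate 2 and WT replicate 1 were close. The log2 fold change was 0.66 ± 0.17 (adjusted p = 0.319, edgeR), 0.61 ± 0.21 without the library labelled WT replicate 2 and 0.66 ± 0.20 without CD73 KO replicate 1. Spry1 overlapped only through WT replicate 3, with 12.2, 12.7 and 10.97 CPM in CD73 KO and 7.54, 7.88 and 11.8 CPM in WT (log2 fold change 0.42 ± 0.21, adjusted p = 0.557, edgeR). Spred1 averaged 21.2 ± 4.15 CPM over the CD73 KO libraries, against 20.2 ± 1.20 CPM over WT (SD, n = 3 each), a difference below the spread of CD73 KO. Summed over the 3 genes, the level was 89.4, 76.3 and 91.6 CPM in CD73 KO and 65.5, 59.4 and 61.9 CPM in WT, without overlap. Spry2 was the largest part of each sum, and Spry1 and Spred1 each overlapped. The sum therefore does not show a shift shared by the family.

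MAP kinase phosphatases divide into nuclear and cytoplasmic enzymes with different preferences for ERK, p38 and JNK. Dusp2, a nuclear phosphatase made by activated lymphocytes, had the highest CPM among them, at 126, 65.9 and 97.7 CPM in CD73 KO and 73.0, 59.0 and 75.0 CPM in WT. The groups overlapped through CD73 KO replicate 2 (log2 fold change 0.49 ± 0.22, adjusted p = 0.520, edgeR). Dusp1, the nuclear phosphatase that acts mainly on p38 and JNK, was at 30.1, 17.7 and 23.3 CPM in CD73 KO and 16.2, 13.8 and 20.5 CPM in WT. Its log2 fold change of 0.50 ± 0.22 (adjusted p = 0.507, edgeR) was 0.38 ± 0.25 without the library labelled WT replicate 2 and 0.28 ± 0.20 without CD73 KO replicate 1.

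Dusp6, the cytoplasmic phosphatase specific for ERK, was not highest in CD73 KO replicate 1. It was at 41.7, 56.9 and 55.5 CPM in CD73 KO and 49.5, 38.7 and 47.7 CPM in WT, and its log2 fold change of 0.18 ± 0.15 was 0.31 ± 0.14 without CD73 KO replicate 1. Dusp4, a nuclear phosphatase of ERK and JNK, went the other way. It was at 83.4, 38.8 and 37.7 CPM in CD73 KO and 46.6, 43.5 and 55.2 CPM in WT, and its log2 fold change of 0.15 ± 0.31 was -0.34 ± 0.14 without CD73 KO replicate 1. Dusp5, which binds ERK in the nucleus, and Dusp10, which acts on p38 and JNK, also turned, to -0.17 and -0.16.

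NF-kB inhibitors held the 3 highest ratios of CD73 KO replicate 1 to the other libraries among the members. Nfkbia encodes IkB-alpha, which pulls NF-kB back to the cytoplasm and is itself an NF-kB target (chromosome 12, 55489410 to 55492647). It was at 296, 63.0 and 77.4 CPM in CD73 KO, against 96.4, 85.3 and 68.6 CPM in WT. CD73 KO replicate 1 alone was high, at 3.83 times the median of the other 5 libraries, and the other CD73 KO libraries lay within or below the WT range. The log2 fold change of 0.80 ± 0.62 (adjusted p = 0.708, edgeR) was 0.82 ± 0.82 without the library labelled WT replicate 2 and -0.26 ± 0.16 without CD73 KO replicate 1.

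Tnfaip3, which encodes A20, was also by far the highest in CD73 KO replicate 1 (chromosome 10, 19000910 to 19015657). It was at 231, 83.1 and 91.4 CPM in CD73 KO, against 78.9, 66.8 and 83.4 CPM in WT. Unlike for Nfkbia, CD73 KO replicate 3 lay above every WT library, and CD73 KO replicate 2 lay just below the highest WT library. The log2 fold change of 0.83 ± 0.42 (adjusted p = 0.583, edgeR) was 0.74 ± 0.52 without the library labelled WT replicate 2 and 0.19 ± 0.13 without CD73 KO replicate 1.

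Nfkbiz encodes the nuclear protein IkB-zeta, which shapes the choice of NF-kB targets (chromosome 16, 55811375 to 55838899). It was at 51.9, 22.5 and 24.5 CPM in CD73 KO, against 17.3, 16.8 and 20.4 CPM in WT. All CD73 KO libraries were above WT, by far the most in replicate 1. For Nfkbiz the log2 fold change of 0.87 ± 0.31 (adjusted p = 0.453, edgeR) was 0.82 ± 0.39 without the library labelled WT replicate 2 and 0.37 ± 0.16 without CD73 KO replicate 1. Nfkbid, encoding the related nuclear protein IkBNS, ran from 13.9 to 25.3 CPM in CD73 KO and from 13.2 to 20.8 CPM in WT.

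Of the NF-kB subunits, Nfkb1 encodes the p105 precursor of p50 and had the highest mean CPM of all members. It was not highest in CD73 KO replicate 1, at 408, 442 and 381 CPM in CD73 KO and 463, 466 and 429 CPM in WT (log2 fold change -0.14 ± 0.10, adjusted p = 0.670, edgeR). Rel, which encodes the c-Rel subunit of lymphocytes, was highest in that library, at 194, 114 and 105 CPM in CD73 KO and 139, 110 and 88.8 CPM in WT. Its log2 fold change of 0.29 ± 0.26 was -0.048 ± 0.17 without CD73 KO replicate 1.

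The NF-kB consensus stood in a window of 9 of the 27 members (Egr2, Fos, Fosb, Fosl2, Ier3, Nfkbia, Nfkbid, Rel and Tnfaip3), 33.3% against 9.55% of all genes with a window. The Nfkbia and Tnfaip3 stretches are shown because these members had the largest ratios of CD73 KO replicate 1 to the other libraries. Capitals mark the NF-kB consensus at bases -29 to -20 in Nfkbia (chr12:55492648-55492897, minus strand). In Tnfaip3 (chr10:19015411-19015547, minus strand) they mark an AP-1 site at bases -136 to -130 and the NF-kB consensus at bases -125 to -116 and -12 to -3. The Tnfaip3 stretch begins where another annotated exon of the gene ends. A match describes the letters of these windows and not the binding of a factor.
Nfkbia promoter: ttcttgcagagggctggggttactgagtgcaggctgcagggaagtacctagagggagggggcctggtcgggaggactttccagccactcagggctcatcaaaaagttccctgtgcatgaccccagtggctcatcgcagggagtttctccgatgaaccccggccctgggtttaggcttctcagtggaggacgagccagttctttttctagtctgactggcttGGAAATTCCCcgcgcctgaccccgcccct
Tnfaip3 promoter: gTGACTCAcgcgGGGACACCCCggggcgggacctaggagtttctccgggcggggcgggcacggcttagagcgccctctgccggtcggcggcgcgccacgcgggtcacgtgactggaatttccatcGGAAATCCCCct

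**Figure D4:**
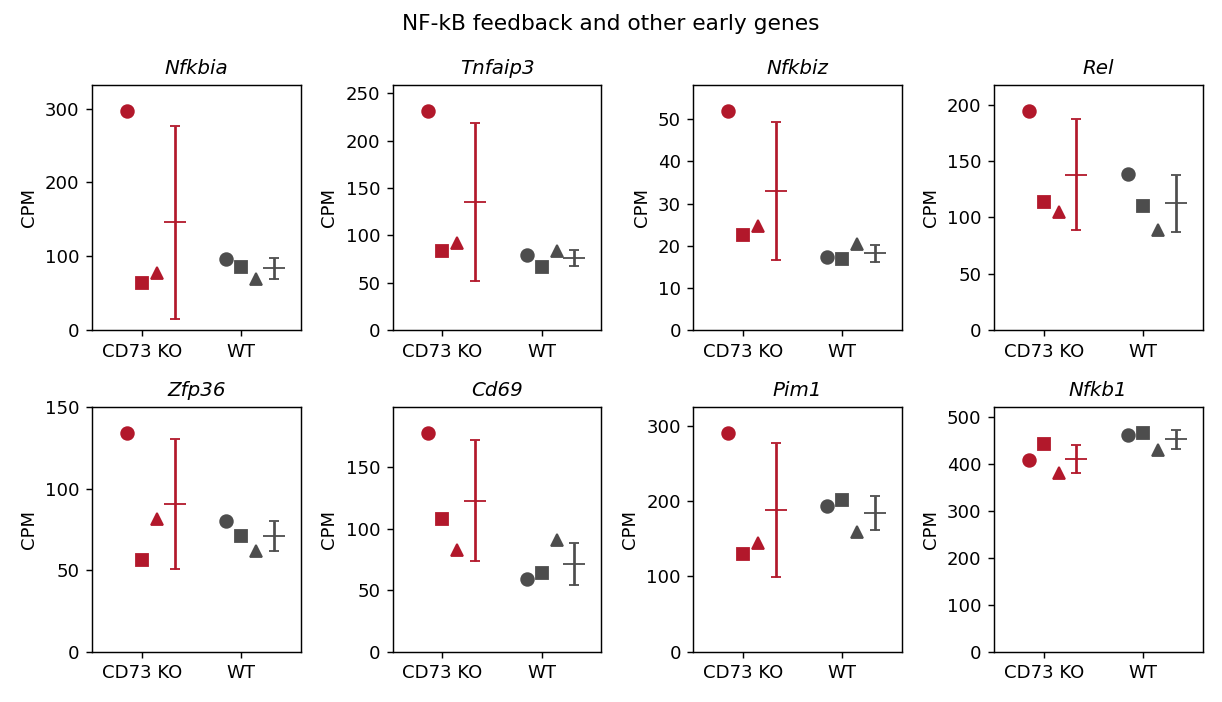
CPM of 4 NF-kB feedback or subunit genes (top) and of Zfp36, Cd69, Pim1 and Nfkb1 (bottom) in CD73 KO (red, left) and WT (grey, right). Circles, squares and triangles are replicates 1, 2 and 3, and the horizontal mark with its bar is the mean ± SD (n = 3). The circle of CD73 KO is the highest point in every panel but Nfkb1, at 296 CPM for Nfkbia.

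ZFP36 proteins bind AU-rich elements of cytokine and early gene mRNAs and speed their decay. Zfp36l2, the family member of highest CPM, was at 153, 112 and 114 CPM in CD73 KO and 126, 123 and 116 CPM in WT. Zfp36 was at 134, 56.3 and 81.5 CPM in CD73 KO and 80.3, 71.0 and 62.1 CPM in WT, and Zfp36l1 at 174, 92.6 and 86.4 CPM in CD73 KO and 116, 85.3 and 81.4 CPM in WT. All 3 genes were highest in CD73 KO replicate 1. Their log2 fold changes were 0.057 to 0.35 with all libraries and -0.11 to -0.058 without it.

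AP-1 members, whose proteins pair as Fos-Jun or Jun-Jun dimers, all overlapped between genotypes in CPM. Jund, the family member of highest mean CPM, was at 169, 138 and 235 CPM in CD73 KO and 209, 220 and 166 CPM in WT. Junb was at 157, 79.5 and 144 CPM in CD73 KO, a wider spread than the 105, 112 and 110 CPM of WT. Fos was at 16.0, 23.6 and 30.1 CPM in CD73 KO and 8.94, 13.0 and 32.5 CPM in WT, so that WT held both the highest and the lowest library.

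Fosb was nearly level across CD73 KO, at 36.0, 35.4 and 35.9 CPM, and spread over 17.6, 38.9 and 53.5 CPM in WT. Jun was at 39.0, 27.4 and 47.9 CPM in CD73 KO and 19.6, 19.2 and 45.6 CPM in WT. Fos, Fosb and Jun were thus highest within WT in replicate 3, and Fos and Jun were also highest within CD73 KO in replicate 3. Fosl2, which encodes Fra-2, instead was highest in CD73 KO replicate 1, at 50.5, 17.8 and 22.5 CPM in CD73 KO and 30.8, 25.0 and 23.9 CPM in WT. The log2 fold changes of the 6 AP-1 genes ran from -0.14 for Jund to 0.46 for Jun. Those of Fos and Jun depended on the setting. Without WT replicate 3 they were 1.08 and 0.97 (unadjusted p = 0.0043 and 0.0019, adjusted p = 0.222 and 0.192, edgeR). Without WT replicate 1 they were 0.034 and 0.24. With the replicate number as a block they were 0.52 ± 0.21 and 0.53 ± 0.18 (unadjusted p = 0.038 and 0.016, adjusted p = 0.468 and 0.411, edgeR).

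Of the last 3 members, Cd69 encodes a surface lectin that marks recent activation and holds T cells in tissue. It was at 178, 108 and 82.6 CPM in CD73 KO, against 59.0, 63.6 and 91.1 CPM in WT. The groups overlapped through CD73 KO replicate 3 and WT replicate 3. Its log2 fold change of 0.80 ± 0.30 (adjusted p = 0.492, edgeR) was 0.72 ± 0.37 without the library labelled WT replicate 2 and 0.42 ± 0.19 without CD73 KO replicate 1. Klf6, a zinc finger factor, was at 247, 213 and 185 CPM in CD73 KO, against 197, 237 and 212 CPM in WT, with log2 fold change -0.00011 ± 0.13. Pim1, a survival kinase induced by cytokines, was at 291, 129 and 145 CPM in CD73 KO and 193, 202 and 159 CPM in WT, and its log2 fold change of 0.032 ± 0.30 was -0.44 ± 0.14 without CD73 KO replicate 1.

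There were 6 members at least 2-fold higher in CD73 KO replicate 1 than the median of the other 5 libraries (Fosl2, Nfkbia, Nfkbiz, Tnfaip3, Zfp36l1 and Cd69), 17.1% of the list against 2.39% of all genes tested. The median of this ratio was 1.42 over the members and 0.997 over all genes. Fos, Jund, Egr3, Dusp6 and Nfkb1 had ratios of 0.584 to 0.925, so the members did not all lie high in that library. That library was also the deepest. With all libraries thinned to the smallest total 32 of 35 members were above 0, against 51.1% of genes, and 0 passed the test, against 0.0691% of genes. Random thinning keeps the expected proportions of each library, so these signs cannot test the part of depth. The 1943 counts of Pecam1 in CD73 KO replicate 1 were the most of any library. The part of depth or of Pecam1 in this pattern was not tested.

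Levels per length (CPM per kilobase of annotated exon, mean of 6 libraries) ranked the members in another order than CPM. Jund was highest at 114, followed by Nfkbia at 71.1, Pim1 at 55.5, Junb at 51.3, Ier2 at 49.8 and Klf6 at 49.0 CPM per kilobase. Fosl2 at 2.94, Spred1 at 3.05 and Egr2 at 3.38 CPM per kilobase were lowest. The members of lowest unadjusted p by edgeR, Egr2, Btg2, Spry2 and Btg1, spanned 3.38 to 37.8 CPM per kilobase and so were not confined to 1 end of this order. Annotated exons of 10 other genes overlap member exons on the opposite strand. Prdx2 overlaps 7.5% of the Junb exons and had 1520 to 2893 counts. The largest overlaps were Gm26669 with 55.9% of the Zfp36l1 exons (0 to 2 counts) and Gm11175 with 52.6% of the Jund exons (1 to 7 counts). Without a stated strand setting, reads in these overlaps cannot be told apart, which also limits the level per length of Jund.

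Genes of the same pathways outside the members were read from 4 lists, and 0 of their tested genes passed an adjusted p of 0.05 by edgeR. The shares over all genes tested, to be set beside each list, were 52.3% above 0 with a median of 0.013. At an unadjusted p under 0.05, 5.75% of all genes were higher and 3.89% lower. Among 34 other early response genes tested, 22 were above 0 (median 0.089), and 4 had an unadjusted p under 0.05, all higher (Nr4a2, Myc, Ier5l and Klf2). Without CD73 KO replicate 1 the count above 0 was 13 of 34, against 49.7% of all genes, and the median -0.079. Klf2, a quiescence factor of T cells, was at 27.2, 11.5 and 10.6 CPM in CD73 KO, against 5.05, 6.60 and 6.55 CPM in WT. The groups did not overlap, and its log2 fold change of 1.46 ± 0.37 (adjusted p = 0.326, edgeR) was 0.87 without CD73 KO replicate 1. Myc, a transcription factor that drives growth of activated T cells, was at 202, 196 and 172 CPM in CD73 KO and 105, 113 and 176 CPM in WT, overlapping through WT replicate 3.

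Among 17 other feedback regulators tested, 12 were above 0 with a median of 0.24, and 5 had an unadjusted p under 0.05. Nfkbie, Tnip2, Rc3h2 and Spred3 were higher, and Dusp3 was lower. Without CD73 KO replicate 1, 10 of the 17 were above 0 and the median was 0.060. Nfkbie, which encodes IkB-epsilon, was at 35.9, 21.9 and 24.3 CPM in CD73 KO, against 17.8, 16.7 and 20.2 CPM in WT, the order of libraries seen for Nfkbiz. Dusp3, a small phosphatase of ERK and JNK, was at 6.65, 5.35 and 6.74 CPM in CD73 KO, against 8.32, 11.4 and 8.40 CPM in WT. Among 23 genes of the kinase cascades, 16 were above 0 with a median of 0.082, and Elk4, a partner of serum response factor, alone had an unadjusted p under 0.05 (log2 fold change 0.42 ± 0.17). Among 12 IKK and NF-kB genes, 10 were above 0 with a median of 0.13, and 0 had an unadjusted p under 0.05. Without CD73 KO replicate 1, 16 of the 23 kinase cascade genes were above 0 (median 0.059), and 9 of the 12 IKK and NF-kB genes (median 0.075). Of these pathway genes, all but Klf2 were named after their values were seen.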

How the data were processed

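RNA was sequenced in 6 libraries, 3 labelled CD73 KO and 3 labelled WT. The authors deposited raw counts of reads per Ensembl gene. Per the submitters' processing notes the tools were fastp, HISAT2 and featureCounts with mm10. Their versions, the annotation release and the strand setting: not given in the sources used here. The labels name a stranded kit. Whether replicates are separate mice or cultures is not stated there, so p-values reflect only how these libraries vary, which may be technical variation.

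Symbols were found for 49326 of 49671 identifiers. The filterByExpr filter (at least 10 counts, at least 15 in total) left 12242 genes. The test was the robust quasi-likelihood F-test of edgeR 4.0.16 in R 4.3.3 with TMM factors, with Benjamini-Hochberg adjustment over all genes tested and 0.05 as the threshold. The SE is the log2 fold change divided by the square root of F. CPM use TMM factors. Coordinates and exon lengths are from GENCODE M21 (GRCm38, the assembly of mm10). Promoter sequences are from RefSeq on GRCm38.p6.

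One count equals 0.0532 to 0.142 CPM. The fit was tested on simulated data in which each gene had the same spread in all libraries. That test cannot show how the fit handles a library that stands apart. Alternatives were RLE factors, library size alone, 2 other filters, no robust estimation, DESeq2 1.42.0, limma-voom 3.58.1, the replicate number as a block, thinning, and leaving out each library. Members and lists were chosen with earlier results of these data known. Values per library are given for members at an unadjusted p under 0.05, members whose libraries did not overlap and the member of highest mean CPM in each role group. Pathway genes were to be named at an unadjusted p under 0.01. The values per library of other members were added after they were seen.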

Additional observations from a re-analysis of the deposited data

How the results depend on the processing

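Over 15 alternatives, 489 of 525 log2 fold changes of the 35 members kept their sign and side of the threshold, 6 passed it and 30 turned. The 6 came without a filter on low counts, where 298 of 21315 genes were called (7 with the filter, 98 with DESeq2) and 6 members (Egr2, Btg1, Btg2, Dusp2, Spry2 and Nfkbiz). The other settings called 0 members, and the cause was not tested. Leaving out 1 library gave 4 to 8 called genes. Members at an unadjusted p under 0.05 numbered 4 to 14, against 565 to 1758 of the 12223 to 12599 genes tested. Members higher in CD73 KO numbered 18 to 33 of 35, against 49.7% to 52.6% of genes, and the median over members was 0.029 to 0.464. Nt5e ran from -2.14 to -1.06 over these fits.

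When 1 library was left out, 16 members turned, 13 of them without CD73 KO replicate 1. Their ranges were -0.37 to 0.351 for Fosb, -0.417 to 0.465 for Fosl2, -0.375 to 0.0217 for Jund, -0.267 to 0.305 for Ier3, -0.24 to 0.489 for Ier5, -0.343 to 0.34 for Dusp4, -0.173 to 0.156 for Dusp5, -0.157 to 0.239 for Dusp10, -0.0588 to 0.219 for Spred1, -0.0481 to 0.473 for Rel, -0.262 to 1.16 for Nfkbia, -0.0584 to 0.601 for Zfp36, -0.0841 to 0.498 for Zfp36l1, -0.114 to 0.136 for Zfp36l2, -0.119 to 0.0945 for Klf6 and -0.435 to 0.242 for Pim1. Near 0, Fosb was 0.19 with limma-voom, 0.098 with the replicate block and 0.0497 after thinning. Pim1 was -0.0542 with limma-voom and -0.057 with the replicate block. Klf6 was 0.0067 with library size alone, 0.0033 without a filter and 0.0013 with 1 CPM in 3 libraries. The cause of these turns was not tested.

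Both genotypes number their replicates alike, and whether equal numbers mark a pair is not stated in the sources used here. Over all genes tested, deviations of libraries with the same number correlated at 0.15, -0.17 and 0.01. CD73 KO replicates 1, 2 and 3 each correlated best with a WT library of another number, at 0.26, 0.36 and 0.10. Among the WT libraries, only replicate 1 correlated best with its own number. These values describe all genes together and, with 3 libraries per genotype, cannot show whether libraries were paired. With the replicate block 5 genes and 0 members were called. At an unadjusted p under 0.05 there were 10 members, all higher in CD73 KO, against 5.89% of genes higher and 4.16% lower. They were Fos, Jun, Egr2, Btg1, Btg2, Dusp1, Dusp2, Spry2, Rel and Nfkbiz.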
